A study of Rattus norvegicus with 12 samples.

Results

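The genes described here encode the subunits of AMP-activated protein kinase (AMPK) and its upstream kinase. They are the catalytic alpha subunits Prkaa1 and Prkaa2, the beta scaffold subunits Prkab1 and Prkab2, the nucleotide-binding gamma subunits Prkag1 and Prkag2, and Stk11 (LKB1). The 7 genes were taken by symbol from the 10729 genes kept from the deposited expression table, and all 7 were among the 10689 tested. The set was chosen by the FPKM of Prkaa2, which was higher with Grin3a knockdown than in control after activity was restored. That value of Prkaa2, and every comparison that uses the same libraries, is therefore given as a description with no test. The question asked of the other 6 genes was whether they shared that difference.

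AMPK is a heterotrimer of 1 alpha, 1 beta and 1 gamma subunit that senses cellular energy through AMP, ADP and ATP bound to gamma. Stk11, in a complex with a STRAD pseudokinase and a Cab39 scaffold, phosphorylates the activation loop of alpha, and the calcium-dependent kinase Camkk2 can do so as well. In neurons, where firing raises both ATP use and calcium, the active kinase slows lipid and protein synthesis and favours autophagy and mitochondrial renewal. These are effects on enzyme activity, which RNA levels do not measure.

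The 12 libraries were made from cultured hippocampal neurons of CD Sprague Dawley rat embryos of both sexes at E18.5. Cultures carried either an empty pLKO.1 lentiviral vector (control) or 1 pLKO.1 hairpin against rat Grin3a (knockdown), delivered on day 1 in vitro; Grin3a encodes the GluN3A subunit of NMDA receptors. All cultures received 1 µM tetrodotoxin (TTX), which blocks voltage-gated sodium channels and so silences firing, from day 5 for 48 h. They were harvested on day 7 either in TTX or 6 h after its withdrawal, which lets firing resume, giving control in TTX, knockdown in TTX, control after withdrawal and knockdown after withdrawal, with 3 libraries each. No culture was left without TTX, and 1 hairpin cannot be told apart from its off-target effects. Libraries of 1 group are labelled as biological replicates without mention of separate dissections, so p-values measure only the spread between them.

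Levels are the authors' FPKM (fragments per kilobase of transcript, scaled to the mapped fragments), a per-length unit whose sum ran from 428070 to 517703 per library. Read depth is unknown. Grin3a stood at 18.6, 18.2 and 23.0 FPKM in control in TTX and at 9.30, 6.01 and 4.77 FPKM with knockdown in TTX. After withdrawal it stood at 13.8, 19.8 and 4.88 FPKM in control and at 5.22, 3.32 and 2.50 FPKM with knockdown, so control replicate 3 lay within the knockdown range. In the library labelled control after withdrawal replicate 3, 6 pan-neuronal markers summed to 859 FPKM, against 1830 to 3710 FPKM elsewhere. The 12 microglia markers summed to 2100 FPKM in it, against 48.2 to 862 FPKM elsewhere. The cultures held glia throughout, with 8 astrocyte markers summing to between 835 and 3470 FPKM. By replicate number, that sum after withdrawal was 2590, 1410 and 2690 FPKM in control and 1640, 835 and 1510 FPKM with knockdown. The microglia sum there was 862, 118 and 2100 FPKM in control and 469, 48.2 and 633 FPKM with knockdown. The pan-neuronal sum was 1860, 3090 and 859 FPKM in control and 2340, 3290 and 1830 FPKM with knockdown. These ranges overlapped between the groups. The 7 glutamatergic markers summed to between 777 and 811 FPKM in control in TTX and to between 126 and 542 FPKM in control after withdrawal. With knockdown after withdrawal that sum was 312 to 423 FPKM. In such bulk samples fewer cells of a type and less RNA per cell cannot be told apart. The part of these marker differences in the results was not tested, and values without that library are given where they bear on a result.

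In outline, the gamma subunits changed places after TTX withdrawal in control cultures. Prkag1 rose from a mean of 30.4 to 62.6 FPKM and Prkag2 fell from 58.0 to 28.6 FPKM. With knockdown, Prkag1 rose from 38.2 to 59.9 FPKM and Stk11 fell from 44.2 to 20.8 FPKM after withdrawal. No other member passed in any comparison in which it was tested, and Prkaa2 was tested only for knockdown in TTX. The knockdown difference of Prkaa2 after withdrawal, 10.2 against 19.6 FPKM, was accompanied by smaller differences in the same direction for Prkaa1, Prkab2 and Prkag2. Prkab1, Prkag1 and Stk11 differed in the opposite direction, by -0.13, -0.06 and -0.47 on the log2(FPKM + 1) scale. None of these 6 differences passed the test.

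The promoters of the genes on which these results turn are shown so that they can be compared. They are the 250 bases before the RefSeq start on assembly GRCr8, read on the gene's own strand. All 7 genes matched, with 8 promoters, because RefSeq gives Prkag2 2 starts. The deposited Prkag2 locus spans 46.4 kb, close to the 46.5 kb from the second start to the gene's end rather than the 241.2 kb from the first, so the promoter of the second start is printed. Capitals mark each match on either strand to GGGCGG (a GC box, CCGCCC on the other strand) or to TGACG (the core of a cAMP response element).
Prkaa2, chr5:125108325-125108574, minus strand: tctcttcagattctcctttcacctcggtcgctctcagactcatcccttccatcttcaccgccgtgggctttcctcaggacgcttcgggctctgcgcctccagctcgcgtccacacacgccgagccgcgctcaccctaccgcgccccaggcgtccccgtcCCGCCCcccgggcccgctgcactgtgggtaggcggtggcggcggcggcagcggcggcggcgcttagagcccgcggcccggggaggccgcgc
Prkag1, chr7:131859485-131859734, minus strand: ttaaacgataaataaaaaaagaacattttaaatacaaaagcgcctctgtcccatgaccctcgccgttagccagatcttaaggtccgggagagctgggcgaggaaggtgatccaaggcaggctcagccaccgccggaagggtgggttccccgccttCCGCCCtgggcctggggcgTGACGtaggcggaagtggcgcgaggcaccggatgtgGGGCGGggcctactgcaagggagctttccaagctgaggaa
Stk11, chr7:10241966-10242215, minus strand: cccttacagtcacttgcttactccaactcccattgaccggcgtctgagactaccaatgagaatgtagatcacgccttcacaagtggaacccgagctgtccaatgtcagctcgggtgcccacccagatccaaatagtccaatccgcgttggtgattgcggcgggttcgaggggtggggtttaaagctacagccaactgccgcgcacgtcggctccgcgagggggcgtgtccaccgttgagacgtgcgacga
Prkag2, the second start, chr4:10939230-10939479, plus strand: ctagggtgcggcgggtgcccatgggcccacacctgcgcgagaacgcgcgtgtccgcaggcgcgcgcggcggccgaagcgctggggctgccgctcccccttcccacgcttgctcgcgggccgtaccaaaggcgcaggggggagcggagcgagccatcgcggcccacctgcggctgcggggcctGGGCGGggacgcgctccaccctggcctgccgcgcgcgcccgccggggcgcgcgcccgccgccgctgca
The Prkaa2 promoter held 1 GC box, 91 bases before the start, and the Prkag2 promoter held 1, 68 bases before it. The Prkag1 promoter held 2 GC boxes, the farther one 95 bases before the start, and 1 TGACG between them, 76 bases before the start. Neither motif matched in the Stk11 promoter. The deposited Stk11 locus spans 24.1 kb, against 16.8 kb from this start to the gene's end. For Prkaa2 the deposited locus spans 67.9 kb, against 71.4 kb from the printed start to the gene's end. Whether the deposited transcripts of Stk11 and Prkaa2 begin at the printed starts is therefore unknown. Of 33469 rat promoters of this length, 30.5% held GGGCGG and 18.2% held TGACG. The full element TGACGTCA, found in 1.59% of promoters, and the E-box CACGTG, found in 5.59%, matched in none of the 8 member promoters. A relaxed MEF2 site, CTA and TAG separated by any 4 bases and found in 3.41%, matched in none of them either. G and C made up 72.8% of the Prkaa2 bases, 58.8% of the Prkag1 bases, 58.4% of the Stk11 bases and 80.8% of the Prkag2 bases, against a median of 51.2% over all promoters. These matches describe the letters in these windows and nothing more.

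All 7 genes were expressed in every library, none below 1 FPKM. The gamma subunits were the most abundant members, with means over 12 libraries above those of 78.1% (Prkag1) and 74.7% (Prkag2) of all genes. Stk11 lay above 67.5% of genes and Prkab1 above 58.5%. Prkaa2, Prkaa1 and Prkab2 lay near the middle, above 46.5%, 45.7% and 42.7% of genes. The ratio of the highest to the lowest library was 1.41 for Prkab1, 1.63 for Prkab2, 2.02 for Prkaa1, 2.37 for Prkaa2, 2.65 for Prkag1, 2.96 for Prkag2 and 3.13 for Stk11. The beta subunits thus varied least across these libraries, and Stk11 and Prkag2 most.

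**Figure D1:**
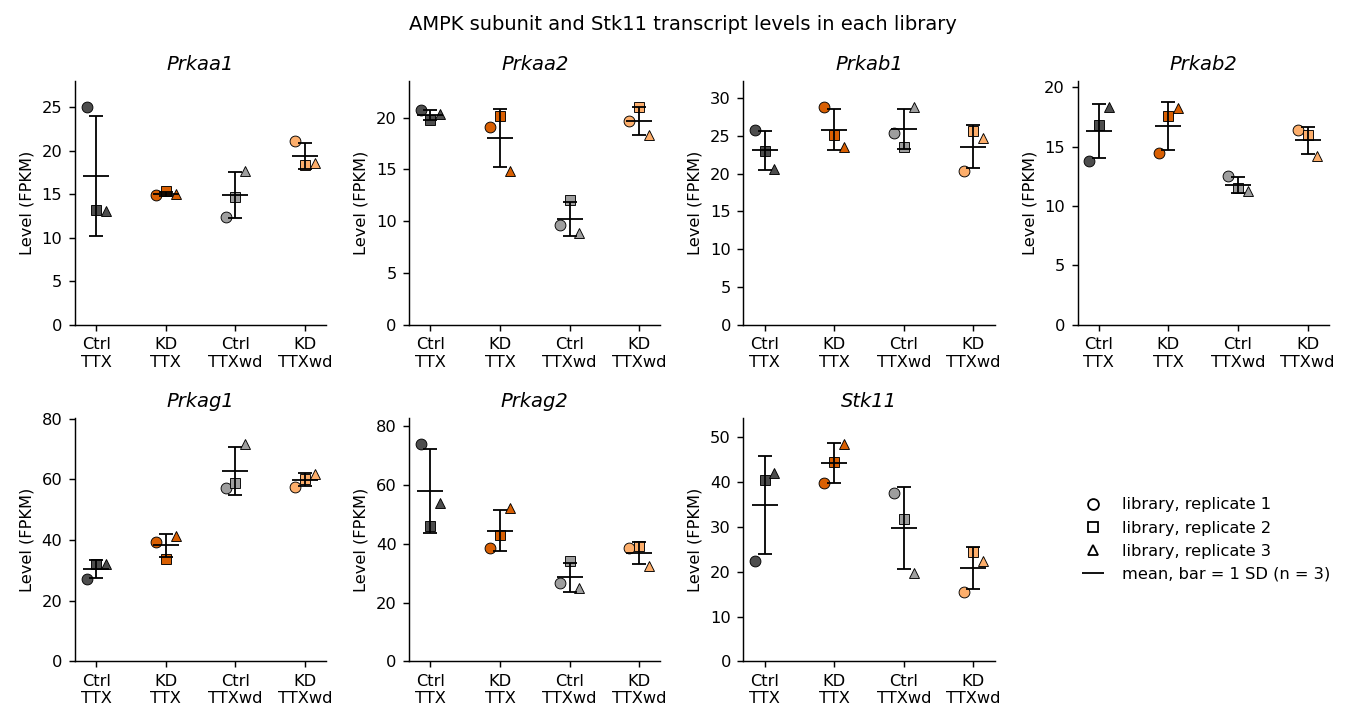
Level of each of the 7 genes in each library, in FPKM on linear axes that start at 0, by group; points are libraries and bars are the mean and SD of 3 libraries. Prkaa2 is lowest in control after withdrawal (8.86 to 12.0 FPKM), Prkag1 is highest in both groups after withdrawal (57.2 to 71.7 FPKM), and Prkag2 is lowest in control after withdrawal (25.0 to 34.1 FPKM).

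Prkaa2 encodes the alpha2 catalytic subunit (rn5 chr5:128436022-128503874, minus strand). It stood at 20.7, 19.8 and 20.3 FPKM in control in TTX and at 19.1, 20.2 and 14.9 FPKM with knockdown in TTX. After withdrawal it stood at 9.67, 12.0 and 8.86 FPKM in control and at 19.6, 21 and 18.3 FPKM with knockdown. Control after withdrawal was therefore the group apart: its 3 libraries lay below all 9 others, and the other 3 groups overlapped. The difference that chose the set was 0.89 on the log2(FPKM + 1) scale, a ratio of means of 1.93, and the authors' deposited table gives a log2 ratio of 0.948. Withdrawal in control, which shares the libraries of control after withdrawal, gave a log2 difference of -0.94 (ratio 0.502), and withdrawal with knockdown gave 0.12. Without control after withdrawal replicate 3, the library with high microglia markers, the knockdown difference was 0.81 and the withdrawal difference in control -0.85. Knockdown in TTX, whose difference uses none of the libraries that chose the set although its SE is pooled over all 12, gave -0.17 (SE 0.16, 95% interval -0.52 to 0.18, adjusted p = 0.936, limma).

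Prkaa1 encodes alpha1, the other catalytic subunit (rn5 chr2:73882079-73917812, plus strand). RefSeq lists pseudogene copies of it in the rat, so reads may have been shared with them and its level is uncertain to that extent. It stood at 25.0, 13.2 and 13.1 FPKM in control in TTX and at 14.9, 15.3 and 15.03 FPKM with knockdown in TTX. The first of these libraries was the highest of all 12 and lay far from its 2 replicates. After withdrawal Prkaa1 stood at 12.4, 14.7 and 17.7 FPKM in control and at 21.2, 18.4 and 18.7 FPKM with knockdown. The knockdown libraries lay above the control libraries here, by a ratio of means of 1.30, and the log2 difference of 0.37 did not pass the test (SE 0.23, 95% interval -0.13 to 0.87, adjusted p = 0.527, limma). After withdrawal with knockdown the libraries also lay above those in TTX, by 0.34 (adjusted p = 0.338). Prkaa1 did not show the low level that Prkaa2 had in control after withdrawal: that contrast gave -0.13 (adjusted p = 0.710), and its sign turned when control in TTX replicate 1 was left out.

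Prkab2 encodes beta2, the scaffold subunit that carries a glycogen-binding module as beta1 does (rn5 chr2:219310174-219322362, plus strand). It stood at 13.8, 16.8 and 18.3 FPKM in control in TTX and at 14.4, 17.6 and 18.2 FPKM with knockdown in TTX. After withdrawal Prkab2 stood at 12.5, 11.5 and 11.2 FPKM in control and at 16.4, 15.96 and 14.2 FPKM with knockdown. As for Prkaa2, control after withdrawal lay below all 9 other libraries. The knockdown difference after withdrawal was 0.37 (SE 0.15, 95% interval 0.04 to 0.71, ratio 1.32), with an adjusted p of 0.377. Withdrawal in control gave -0.43 (95% interval -0.77 to -0.10, ratio 0.720), with an adjusted p of 0.0698. That p was 0.0271 without control in TTX replicate 1 and 0.152 without control after withdrawal replicate 3. The 2 comparisons share the control libraries after withdrawal and so are not independent. Withdrawal with knockdown gave -0.10 (adjusted p = 0.708).

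Prkab1 encodes beta1 (rn5 chr12:48117571-48127947, plus strand) and was the steadiest member. It stood at 25.8, 23.0 and 20.6 FPKM in control in TTX and at 28.8, 25.1 and 23.5 FPKM with knockdown in TTX. Its levels after withdrawal were 25.4, 23.5 and 28.8 FPKM in control and 20.4, 25.6 and 24.7 FPKM with knockdown. All 4 groups overlapped. Its knockdown difference after withdrawal was -0.13 (95% interval -0.47 to 0.20, adjusted p = 0.721, limma).

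Prkag1 encodes gamma1, the widely expressed nucleotide-binding subunit. The deposited rn5 table places it at chrX:114999622-115017043 (minus strand) and RefSeq on chromosome 7 of GRCr8, with a span of 17.4 kb in both. It stood at 27.1, 32.1 and 32.1 FPKM in control in TTX and at 39.5, 33.8 and 41.4 FPKM with knockdown in TTX. After withdrawal Prkag1 stood at 57.2, 59.0 and 71.7 FPKM in control and at 57.6, 60.3 and 61.9 FPKM with knockdown. All 6 libraries after withdrawal lay above all 6 in TTX. Withdrawal raised Prkag1 by 1.01 in control (SE 0.14, 95% interval 0.70 to 1.33, ratio 2.06, adjusted p = 0.00332, limma). With knockdown it rose by 0.64 (SE 0.14, 95% interval 0.33 to 0.95, ratio 1.57, adjusted p = 0.0161, limma). The authors' deposited table gives log2 ratios of 1.04 (q = 0.00102) and 0.649 (q = 0.0509), so their threshold was passed in control and narrowly missed with knockdown. The 2 rises differed by -0.37, which did not pass the test (adjusted p = 0.525). In TTX the knockdown libraries lay above the controls, by 0.32 (ratio 1.26), with an adjusted p of 0.936. After withdrawal the knockdown difference was -0.06 (95% interval -0.37 to 0.26, adjusted p = 0.878).

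Prkag2 encodes gamma2, the subunit mutated in an inherited glycogen-storage cardiomyopathy (rn5 chr4:6770352-6816800, plus strand). It stood at 74.0, 46.1 and 53.8 FPKM in control in TTX and at 38.5, 42.8 and 52.2 FPKM with knockdown in TTX. After withdrawal Prkag2 stood at 26.7, 34.1 and 25.0 FPKM in control and at 38.5, 39.3 and 32.5 FPKM with knockdown. Control fell at withdrawal with no overlap, whereas the groups of the other 3 pairwise comparisons overlapped. The fall in control was -0.98 (SE 0.20, 95% interval -1.42 to -0.54, ratio 0.493, adjusted p = 0.0101, limma), and the authors' deposited table gives -1.02 (q = 0.00102). Withdrawal with knockdown gave -0.26 (adjusted p = 0.404). The difference between these 2 responses was 0.72 (SE 0.28, 95% interval 0.10 to 1.34), with an unadjusted p of 0.0265 and an adjusted p of 0.492, so it is not shown that they differ. After withdrawal the knockdown difference was 0.36 (95% interval -0.08 to 0.80, adjusted p = 0.484).

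Without control after withdrawal replicate 3, the withdrawal changes in control were 0.91 for Prkag1 (adjusted p = 0.00996) and -0.89 for Prkag2 (adjusted p = 0.0348). That library held the highest Prkag1 and the lowest Prkag2 of all 12. Both calls rest on a spread pooled over the 4 groups: with only the 6 control libraries in the fit, the adjusted p was 0.0724 for Prkag1 and 0.0849 for Prkag2, with the same log2 changes, and 1 gene of all passed.

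Stk11 encodes LKB1, the kinase that activates AMPK (rn5 chr7:12603526-12627616, minus strand). It stood at 22.3, 40.5 and 42.0 FPKM in control in TTX and at 39.7, 44.5 and 48.5 FPKM with knockdown in TTX. After withdrawal it stood at 37.6, 31.7 and 19.8 FPKM in control and at 15.5, 24.3 and 22.5 FPKM with knockdown. The knockdown libraries after withdrawal lay below all 6 TTX libraries other than control replicate 1. With knockdown, withdrawal lowered Stk11 by -1.08 (SE 0.28, 95% interval -1.70 to -0.45, ratio 0.469, adjusted p = 0.0290, limma), and the authors' deposited table gives -1.09 (q = 0.0214). In control the change was -0.22 (adjusted p = 0.612), and it was -0.51 without control in TTX replicate 1 and 0.04 without control after withdrawal replicate 3. The difference between the 2 responses was -0.85 (95% interval -1.74 to 0.03, adjusted p = 0.507). Its knockdown difference after withdrawal was -0.47 (95% interval -1.10 to 0.15, adjusted p = 0.516), opposite in sign to that of Prkaa2, and its size rested on single libraries: it was -0.73 without control after withdrawal replicate 3 (adjusted p = 0.269) and -0.29 without replicate 1 of either group (adjusted p = 0.928 without the control and 0.881 without the knockdown library). The withdrawal calls with knockdown were sensitive to single libraries: leaving out any 1 of the 6 knockdown libraries gave Stk11 an adjusted p of 0.0525 to 0.133, and leaving out replicate 2 in TTX or any 1 of the 3 libraries after withdrawal gave Prkag1 0.0514 to 0.0785.

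**Figure D2:**
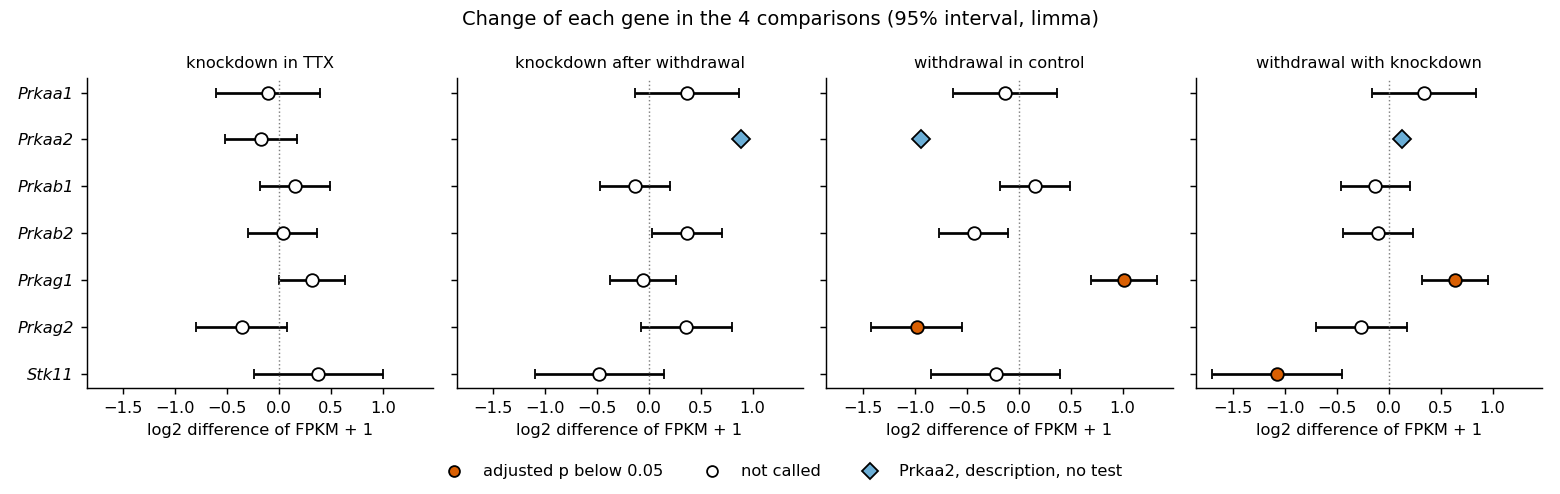
Log2 change of each gene in the 4 pairwise comparisons, as differences of mean log2(FPKM + 1) with 95% intervals from limma; Prkaa2 is drawn without an interval where its value chose the set. Prkag1 sits at 1.01 and Prkag2 at -0.98 for withdrawal in control, and Stk11 at -1.08 for withdrawal with knockdown.

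Each count of members is given beside the share of all genes that met the same rule. Knockdown in TTX called 0 of 7 members, against 0% of all genes (limma); at an unadjusted p below 0.05 it gave 412 genes, or 3.85%, and Prkag1 alone of the members, at 0.0482. Prkag1 was also the 1 member whose libraries did not overlap, with knockdown higher, where 3.94% of genes behaved so, and no member lay lower without overlap, where 7.91% did. The authors' deposited table marks 2.16% of genes there and no member. Knockdown after withdrawal called 0 of the 6 members other than Prkaa2, against 0% of genes higher and 0.00936% lower (limma), and the authors' deposited table, which marks 7.59% of genes, marks none of these 6. Grin3a, the target of the hairpin, did not pass the limma test either. Its log2 difference was -1.48 in TTX (adjusted p = 0.936) and -1.42 after withdrawal (adjusted p = 0.301), with an authors' q of 0.00102 in both. A member that did not pass for knockdown is therefore not shown to be unchanged. At an unadjusted p below 0.05 it gave 1276 genes, or 11.9%, and Prkab2 alone of the 6, at 0.0328. The groups did not overlap, with knockdown higher, for Prkaa1 and Prkab2, 2 of the 6, where 10.8% of all genes behaved so. No member lay lower without overlap, where 9.03% of genes did.

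Withdrawal in control called 1 of these 6 genes higher and 1 lower, where 6.61% of all genes were higher and 11.1% lower. The authors' deposited table marks the same 2 genes, Prkag1 among 9.03% of genes higher and Prkag2 among 13.9% lower. Without overlap, 1 of the 6 lay higher and 2 lower, against 16.1% and 19.6% of all genes. Withdrawal with knockdown called 1 higher and 1 lower, against 4.95% and 9.22% of all genes. The authors' deposited table marks Stk11 there, among 13.6% of genes lower, and no member among the 5.41% higher. Without overlap, Prkaa1 and Prkag1, 2 of the 6, lay higher and 1, Stk11, lower, against 20.2% and 23.8% of all genes. The difference between the responses called 0 members, against 0% of genes (limma), with 1050 genes at an unadjusted p below 0.05, or 9.82%. The median log2 difference of the 6 other members was 0.15 for knockdown after withdrawal, beside -0.02 over all genes tested, and -0.18 for withdrawal in control, beside -0.01.

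Set against its partner in the same subunit class, each alternative subunit took a share of the class that could be followed in every library. Prkag2 made up 73.2%, 58.9% and 62.6% of gamma FPKM in control in TTX and 31.8%, 36.6% and 25.8% in control after withdrawal. With knockdown it made up 49.4%, 55.9% and 55.8% in TTX and 40.1%, 39.4% and 34.5% after withdrawal. In both arms the libraries after withdrawal lay below those in TTX, by 33.5 percentage points in control and 15.7 with knockdown. Prkag2 was thus the larger part of gamma in 5 of 6 TTX libraries and the smaller part in all 6 libraries after withdrawal, while the summed gamma level stayed within 76.7 to 101 FPKM in all 12 libraries. In TTX the knockdown share lay 11.2 points below the control share, again without overlap. Neuronal markers also stood lower with knockdown in TTX, without overlap: the pan-neuronal sum was 2280 to 2640 FPKM against 2960 to 3710 FPKM in control, and the glutamatergic sum 527 to 673 FPKM against 777 to 811 FPKM. Their part in the share was not tested. Each of these 3 differences had an exact two-sided permutation p of 0.1, the smallest that 3 against 3 libraries can give, and 0.18 after adjustment over 9 share tests, so none can pass the threshold in this design.

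Prkab2 made up 34.9%, 42.3% and 47.1% of beta FPKM in control in TTX and 33.1%, 32.9% and 28.1% in control after withdrawal. With knockdown it made up 33.4%, 41.2% and 43.7% in TTX and 44.5%, 38.4% and 36.6% after withdrawal. Control after withdrawal lay below both neighbours, by 10.1 points against control in TTX and by 8.49 points against knockdown after withdrawal (exact permutation p = 0.1 each, adjusted 0.18). The summed beta level was the steadiest class, between 35.1 and 43.2 FPKM. Prkaa2 made up 43.8%, 45.0% and 33.3% of alpha FPKM in control after withdrawal and 48.1%, 53.3% and 49.5% with knockdown after withdrawal, given without a test. The summed alpha level was 25.1 ± 2.65 FPKM (SD, n = 3) in control after withdrawal and 39.1 ± 1.95 FPKM (SD, n = 3) with knockdown after withdrawal, a sum to which Prkaa2 contributes by choice.

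**Figure D3:**
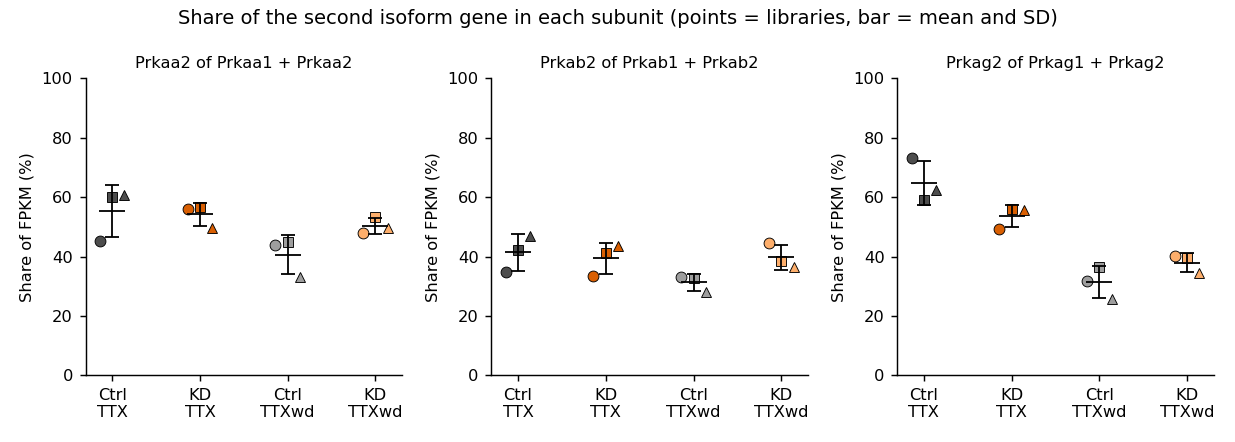
Share of Prkaa2 in alpha, Prkab2 in beta and Prkag2 in gamma FPKM, in percent, by library and group; points are libraries and bars are the mean and SD of 3 libraries. The Prkag2 share is 64.9% in control in TTX and 31.4% in control after withdrawal, with no overlap between their libraries.

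Across the 12 libraries the pairs of members can be described by Pearson's r and Spearman's rho of log2(FPKM + 1), over 21 pairs that share libraries and group differences. Prkag1 and Prkag2 ran opposite to each other (r = -0.854, rho = -0.818), and within groups, over deviations from the group means, r was -0.454. Prkaa1 and Stk11 also ran opposite (r = -0.796, rho = -0.643), and more so within groups (r = -0.896): in control in TTX the library with the highest Prkaa1 held the lowest Stk11 of its group. Prkaa2 ran with Prkab2 (r = 0.732, rho = 0.538) and with Prkag2 (r = 0.702, rho = 0.741), but r was 0.494 and 0.322 without the 2 farthest libraries. Within groups these were -0.160 and 0.183, so those pairs ran together through the group means and not from library to library. The group means of Prkaa2 include the values that chose the set, so its r over the 12 libraries carries that choice.

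The other genes of the pathway came from 4 lists, of which 45 of 54 genes were tested. No pathway gene passed the test for knockdown in TTX, for knockdown after withdrawal or for the difference between the responses (limma), the comparisons in which almost no gene of the table did. By the authors' q, 1 of the 45 was lower with knockdown in TTX, where 2.16% of genes were marked: Ppargc1a (-0.896, q = 0.0246). Its libraries overlapped, at 26.6, 5.65 and 7.28 FPKM in control and 10.9, 5.40 and 4.92 FPKM with knockdown, so the difference rested largely on control replicate 1. After withdrawal 2 were lower with knockdown, where 7.59% of genes were marked: Crtc1 (-0.862, q = 0.0311) and Srebf1 (-0.905, q = 0.0451). The groups overlapped for Crtc1 and did not for Srebf1. None was marked higher in either. Withdrawal called 3 higher and 12 lower in control and 3 higher and 6 lower with knockdown. Over all genes tested, 6.61% were higher and 11.1% lower in control, and 4.95% were higher and 9.22% lower with knockdown. The 15 calls in control became 9 without control in TTX replicate 2, 7 without its replicate 3 and 9 without control after withdrawal replicate 3. The 9 calls with knockdown became 5 without knockdown in TTX replicate 2 or knockdown after withdrawal replicate 1.

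Upstream of AMPK, 2 of 6 genes tested fell after withdrawal in control and none rose, where 11.1% of all genes fell and 6.61% rose. Camkk2, the calcium-dependent AMPK kinase, stood at 10.3, 22.0 and 23.5 FPKM in control in TTX and at 6.11, 5.64 and 3.22 FPKM after withdrawal. Its log2 change was -1.67 in control (adjusted p = 0.00550) and -1.59 with knockdown (adjusted p = 0.00706), where it fell from 14.3 to 4.11 FPKM on average. Neither fall is marked in the authors' deposited table, which gives log2 ratios of -1.90 (q = 0.547) and -1.80 (q = 0.717). The Stk11 scaffold Cab39 fell by 0.60 on the log2 scale in control (adjusted p = 0.0377), a call that ended in 12 of 15 fits that left out libraries. Cab39 is not marked in the authors' deposited table there (q = 0.0665). Its homologue Cab39l rose by 0.77 with knockdown (18.6 to 32.6 FPKM, adjusted p = 0.0294). The STRAD genes did not pass: Strada changed by 0.04 in control and Stradb by -0.38.

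The AMPK-related kinases, which are also substrates of Stk11, were called lower in 6 of 10 cases and higher in 1 after withdrawal in control, where 11.1% of all genes were lower and 6.61% higher. Their median log2 change was -0.69, beside -0.01 over all genes tested. The microtubule-affinity regulating kinase Mark4 stood at 29.2, 60.7 and 62.4 FPKM in control in TTX and at 17.0, 19.2 and 11.1 FPKM after withdrawal, a change of -1.58 (adjusted p = 0.00632). Mark1 changed by -0.82 (adjusted p = 0.0167) and Mark2 by -0.73 (adjusted p = 0.00856). Nuak2 was the exception, rising by 0.86 from 5.51 to 11.0 FPKM (adjusted p = 0.0261). With knockdown 2 of 10 were lower, where 9.22% of all genes were, Mark4 at -1.63 (adjusted p = 0.00640) and Mark2 at -0.79 (adjusted p = 0.00708), and the list's median was -0.57. Brsk1, a kinase of neuronal polarity, fell short of the test in both arms at -0.71 and -0.73.

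Among the AMPK substrates and downstream genes, 3 of 19 fell in control and 3 of 19 with knockdown, and none rose. These counts lie near the shares of all genes that fell, 11.1% in control and 9.22% with knockdown. Crtc1, a CREB coactivator held in the cytoplasm when phosphorylated by kinases of this family, stood at 69.1, 45.5 and 41.3 FPKM in control in TTX and at 22.4, 16.6 and 7.34 FPKM after withdrawal. Its change was -1.78 in control (adjusted p = 0.0122) and -2.09 with knockdown (adjusted p = 0.00729). The transcription factor Foxo1 fell in control by 1.56 on the log2 scale (41.8 to 12.7 FPKM, adjusted p = 0.00718). Foxo3 changed by -0.78 in control (adjusted p = 0.0442, a call that ended in 13 of 15 fits that left out libraries) and by -1.05 with knockdown (adjusted p = 0.0172). Srebf1, a transcription factor of lipid synthesis, stood at 41.9, 67.9 and 50.2 FPKM with knockdown in TTX and at 13.4, 20.4 and 21.6 FPKM after withdrawal, a change of -1.48 (adjusted p = 0.00747). Acaca, the fatty acid synthesis enzyme acetyl-CoA carboxylase and a substrate of AMPK, did not pass in either arm, at -0.76 in control and -0.08 with knockdown.

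Of the 10 regulators tested, 2 rose and 1 fell in control, where 6.61% of all genes rose and 11.1% fell, and 2 rose with knockdown, where 4.95% of all genes rose. Ppm1e, a neuronal phosphatase that removes the activating phosphate from AMPK, stood at 132.9, 68.0 and 71.6 FPKM in control in TTX and at 36.9, 41.6 and 27.6 FPKM after withdrawal (-1.29, adjusted p = 0.00836). Folliculin, Flcn, a tumour suppressor whose partners bind AMPK, rose in control by 0.92 (17.3 to 32.9 FPKM, adjusted p = 0.0138), and its partner Fnip1 rose with knockdown by 0.61 (18.49 to 28.9 FPKM, adjusted p = 0.0311). Sesn1, a stress-induced sestrin, rose in both arms, by 0.84 in control (adjusted p = 0.0249) and by 0.88 with knockdown (adjusted p = 0.0232). With only the 6 control libraries in the fit, the control calls of all 4 lists were lost, as were nearly all calls in the table. Of the other calls named from these lists, those of Nuak2 and Mark1 in control, of Sesn1 in both arms, and of Cab39l, Fnip1 and Foxo3 with knockdown ended in 5 to 8 of 15 fits that left out libraries. The pan-neuronal marker sum lay below all control TTX libraries in 2 of 3 control libraries after withdrawal, and the glutamatergic sum in all 3. With knockdown the glutamatergic sum was 527 to 673 FPKM in TTX and 312 to 423 FPKM after withdrawal. The sum of 7 vascular markers was higher after withdrawal without overlap in both arms, at 21.6 to 31.5 against 33.9 to 52.3 FPKM in control and at 23.8 to 28.5 against 51.7 to 58.3 FPKM with knockdown. The part of these sums in the withdrawal changes was not tested.

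**Figure D4:**
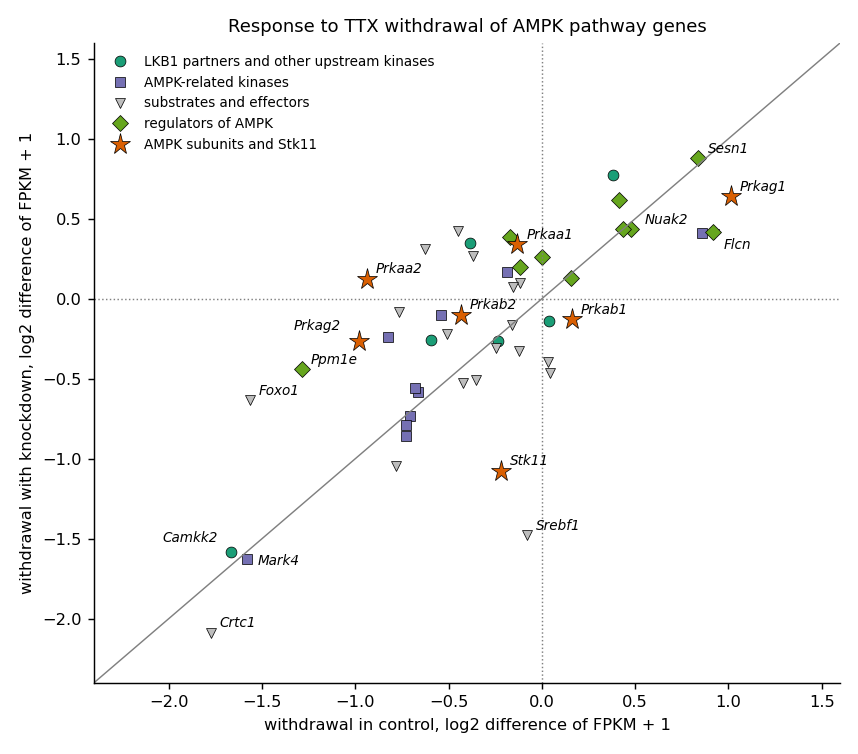
Log2 change of the AMPK subunits, Stk11 and the pathway genes after TTX withdrawal, in control (horizontal axis) and with knockdown (vertical axis), as differences of mean log2(FPKM + 1); each point is a gene, marked by list, and the solid line marks equal change. Camkk2, Mark4 and Crtc1 sit at or below -1.58 in both arms, and Sesn1 sits above 0 in both.

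The genes whose pattern over the 12 libraries was most like that of Prkaa2, among 9873 compared by Pearson's r of log2(FPKM + 1), were Hivep2 (0.954), Slitrk5 (0.936), Fut9 (0.928), Ttbk2 (0.924) and Grin2a (0.920). They were low in the same group as Prkaa2, which follows from how they were picked, since r included the libraries that chose the set. The ranks of members given below carry the same limit. Hivep2, a zinc finger transcription factor, averaged 45.7 FPKM in control in TTX, 39.4 FPKM with knockdown in TTX, 22.9 FPKM in control after withdrawal and 44.0 FPKM with knockdown after withdrawal. Grin2a, which encodes the GluN2A subunit of NMDA receptors, averaged 7.59, 5.99, 2.37 and 5.56 FPKM in the same order. Within groups their r with Prkaa2 lay between 0.598 and 0.778, which also follows in part from how they were picked, since the same libraries were used. Among the AMPK members, Prkab2 ranked 351 by this measure and Prkag2 ranked 483, whereas Prkaa1 ranked 3031, Stk11 4723, Prkab1 7539 and Prkag1 9308.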

How the data were processed

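Polyadenylated RNA of 12 libraries was read on a stranded kit as 50 nt single ends, per the labels' protocols. Per the submitters' processing notes, the tools were Trimmomatic, TopHat2, Cufflinks and Cuffdiff with build rn5; versions are not given in the sources used here. The deposited values are the authors' FPKM per library and group, their log2 ratios of group FPKM and their q-values, which are adjusted p-values, per the file headers. The headers name the control columns "scr" where the labels say empty vector. Of 10730 genes in the deposited table, 1 was left out because its library mean lay more than 1% from the authors' group value. The lowest value of control in TTX replicate 1 is 1.0 FPKM, while every other library reaches 0.0436 FPKM or less, so the genes seem to have been selected on that library.

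Genes with at least 1 FPKM in at least 3 of 12 libraries (10689; 40 were not tested) were fitted on log2(FPKM + 1), pseudocount 1, with limma 3.58.1 in R 4.3.3 (eBayes with trend, 1 coefficient per group, 8 residual degrees of freedom). Two-sided p-values were adjusted by Benjamini and Hochberg's method across all genes tested, at a threshold of 0.05. The limma fit was tried on simulated data with independent libraries. That simulation held no outlying library, marker difference or replicate pairing, so it does not bear on those features here. A log2 change is on the log2(FPKM + 1) scale and understates the change of low genes. Shares were compared by exact permutation in scipy 1.17.1, and figures were drawn with matplotlib 3.10.9 in Python 3.11.15. Read depth is unknown, so no counting error can be given.

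The members, lists and tests were chosen with earlier results of these data known. Named genes are all members, Grin3a, up to 4 called genes per list and comparison by size, up to 4 uncalled ones per list by level, and the 5 genes most like Prkaa2 among those with a mean of at least 2 FPKM. Pathway genes that the authors' deposited table marks for knockdown are named as well. Replicate numbers are shared between groups. Deviations of same-numbered libraries correlated at 0.617, 0.436 and 0.667 for knockdown in TTX, all above 0.1, so the numbers pair those libraries; this pairing rests on the values, as no label states it. For knockdown after withdrawal the correlations were -0.331, 0.875 and 0.563 for replicates 1, 2 and 3. Replicate 1 thus fell short of 0.1, and whether the numbers pair those libraries is unsettled. For withdrawal the lowest values were -0.497 in control and -0.448 with knockdown. Alternatives were another pseudocount, filters and scalings, robust eBayes, a replicate block, a correction for locus span, fits of only the libraries compared, and fits without each library or replicate number.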

Additional observations from a re-analysis of the deposited data

How the results depend on the processing

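With the replicate block, no member changed its call; the count of genes called for knockdown after withdrawal went from 1 to 0, as it did with quantile normalization, with only the libraries compared and with the locus span correction. As a block, the share tests kept their differences, with exact sign-flip p from 0.25 upward. With only the libraries compared, withdrawal in control called 1 gene, 0 members and 0 pathway genes, while withdrawal with knockdown called 2501 genes, against 1514. With the locus span correction Prkab2 for knockdown in TTX turned to -0.0241, its fall at withdrawal in control passed (adjusted p = 0.0283), and Prkaa2 there was -0.77. Leaving out libraries, or a replicate number in all groups, gave 0 to 4 genes called for knockdown after withdrawal, 0 to 1990 for withdrawal in control and 0 to 2634 for withdrawal with knockdown. It gave 0 to 3 and 0 to 2 members other than Prkaa2 called, and 0 to 15 and 0 to 12 pathway genes, for the 2 withdrawals in that order. The count for withdrawal in control was 956 without control after withdrawal replicate 3. Prkag1 and Prkag2 for withdrawal in control then ran from 0.91 to 1.09 (adjusted p 0.00422 to 0.0794) and from -1.26 to -0.75 (0.0107 to 0.112), their calls ending only when a replicate number left all groups. Values whose sign turned were those of Prkaa1 for knockdown in TTX (-0.26 to 0.20), withdrawal in control (-0.40 to 0.28) and the difference (-0.0094 to 0.77), Prkaa2 for withdrawal with knockdown (-0.0011 to 0.21), Prkab1 for withdrawal with knockdown (-0.22 to 0.0486), Prkab2 for knockdown in TTX (-0.0715 to 0.13) and withdrawal with knockdown (-0.23 to 0.0192), Prkag1 for knockdown after withdrawal (-0.12 to 0.0438) and Stk11 for withdrawal in control (-0.69 to 0.19). Shares whose sign turned were those of Prkaa2 (-6.20 to 1.59 points) and Prkab2 (-5.26 to 1.00 points) for knockdown in TTX and of Prkab2 for withdrawal with knockdown (-2.61 to 2.52 points). The cause was not tested. Read depth is unknown and sets no limit that can be given.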
